A study of Arabidopsis thaliana with 12 samples.

Results

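ROF2 (AT5G48570), AT2G29500 and AT5G51440 are 3 Arabidopsis genes known from the heat stress response, and their transcripts were followed in suspension cells given abscisic acid (ABA), a peroxide scavenger or both. They were chosen by name, each through the only probe set annotated to that single gene, and with their levels in the 4 treatment groups already known. They are 3 of 13513 probe sets with 1 annotated gene and of 22810 in the deposited table. Their own values are therefore given as a description, without p-values, and tests are given for 30 other heat and chaperone genes.

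Heat shock proteins are chaperones that bind unfolding proteins and keep them from aggregating, and heat shock factors switch on their genes when cells are heated. Small heat shock proteins share an alpha-crystallin domain and hold unfolding clients for refolding by the ATP-driven chaperones. In plants they exist as classes for the cytosol, the mitochondria, the plastids and other compartments, and many also accumulate in maturing seeds, where ABA acts. ROF2, also called FKBP65, is an FK506-binding immunophilin that works with the HSP90 chaperone. Heat induces it, and it modulates the activity of heat shock factor HSFA2 through its partner ROF1. AT2G29500 encodes a cytosolic class I small heat shock protein, and AT5G51440 a small heat shock protein of the mitochondria.

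The cells were T87, a single suspension line from the Columbia (Col-0) background, at 5 days of culture and 20 h of treatment. The control group received ethanol. The ABA group received 50 µM ABA, the plant hormone that rises in drought and keeps seeds dormant. The DMTU group received ethanol with 5 mM dimethylthiourea (DMTU), which the study used to scavenge hydrogen peroxide, and the ABA+DMTU group received both agents. The study asked which genes ABA regulates and how DMTU alters that. Each group had 3 arrays, and no group was heated. The sample numbers form separate series for the arrays without DMTU and those with it. A difference between those series and an effect of DMTU cannot be told apart.

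Levels are log2 probe set values, so a difference of 1 is a 2-fold difference. Array medians lay between 5.78 and 6.05 and lower quartiles between 3.84 and 3.98, so a level near 4 is at the dim end of the scale, where a difference may be understated. Replicate 1 of the control group and replicate 1 of the ABA group stood apart from their groups over all probe sets. The SD of the log2 difference between replicates 2 and 3 was 0.167 in control and 0.174 in ABA, and pairs that involved replicate 1 had 0.465 to 0.565. To a lesser degree ABA+DMTU replicate 1 (0.406 and 0.4, against 0.244 for the other pair) and DMTU replicate 3 (0.353 and 0.316, against 0.21) also stood apart. Of the 6 listed markers of dividing cells, AUR1 (an Aurora kinase of mitosis) and HTB2 (a histone H2B) had a named probe set, and both were well above the lower quartiles in control cells, with means of 8.14 and 10.36. None of the 8 seed storage and 6 xylem markers had a named probe set, so the label of the cells could not be checked against those.

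ROF2 was higher on every array with DMTU than on any array without it. Its log2 level was 4.36, 5.24 and 5.11 in control replicates 1, 2 and 3, and 4.22, 5.21 and 5.02 in ABA. With DMTU it was 6.34, 6.43 and 5.82, and with ABA+DMTU it was 6.33, 7.53 and 7.41. The highest array without DMTU (5.24) lay below the lowest with DMTU (5.82). The share of all probe sets that separate in this way was not counted, so the separation only describes ROF2.

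The group means of ROF2 were ordered ABA+DMTU (7.09 ± 0.66), DMTU (6.20 ± 0.33), control (4.90 ± 0.48) and ABA (4.82 ± 0.52; SD, n = 3). ABA+DMTU and DMTU were neighbours that overlapped, because replicate 1 of ABA+DMTU lay among the DMTU arrays. DMTU and control did not overlap, and control and ABA did. Relative to control, DMTU had a log2 change of 1.30 ± 0.36 (SE of the fit), a 2.45-fold difference. Relative to ABA alone, ABA+DMTU had 2.28 ± 0.36, a 4.84-fold difference.

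ABA without DMTU left ROF2 near its control level, with a log2 change of -0.09 ± 0.36. The same-numbered differences were -0.13, -0.03 and -0.09, and leaving out single arrays moved the mean change between -0.36 and 0.21, so its sign was not settled. With DMTU present the ABA change was 0.89 ± 0.36, with a range of 0.67 to 1.27 when single arrays were left out, and without any array numbered 1 it was 1.35. The interaction, the ABA change with DMTU minus that without it, was 0.98 ± 0.51. Means of the labelling and RNA quality controls were also higher in both groups with DMTU than in both without, except those of GAPDH. The bioB spike-in, which does not come from the cells, averaged 6.93 ± 0.23 in control and 7.08 ± 0.51 in ABA arrays, and 7.89 ± 0.10 with DMTU and 7.89 ± 0.43 with both agents. For ubiquitin, the 3' probe set exceeded the 5' one by 0.92, 0.67, 1.36 and 1.10 on the log2 scale in the same order. For actin that excess was 3.20 ± 0.46, 2.65 ± 0.09, 3.58 ± 0.12 and 3.31 ± 0.07. The cre spike-in differed less, with means of 12.37 ± 0.20, 12.54 ± 0.19, 12.67 ± 0.12 and 12.81 ± 0.20, and the 3' excess of GAPDH was 0.45 ± 0.10, 0.59 ± 0.07, 0.41 ± 0.19 and 0.64 ± 0.45. Their part in the ROF2 levels was not tested.

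**Figure D1:**
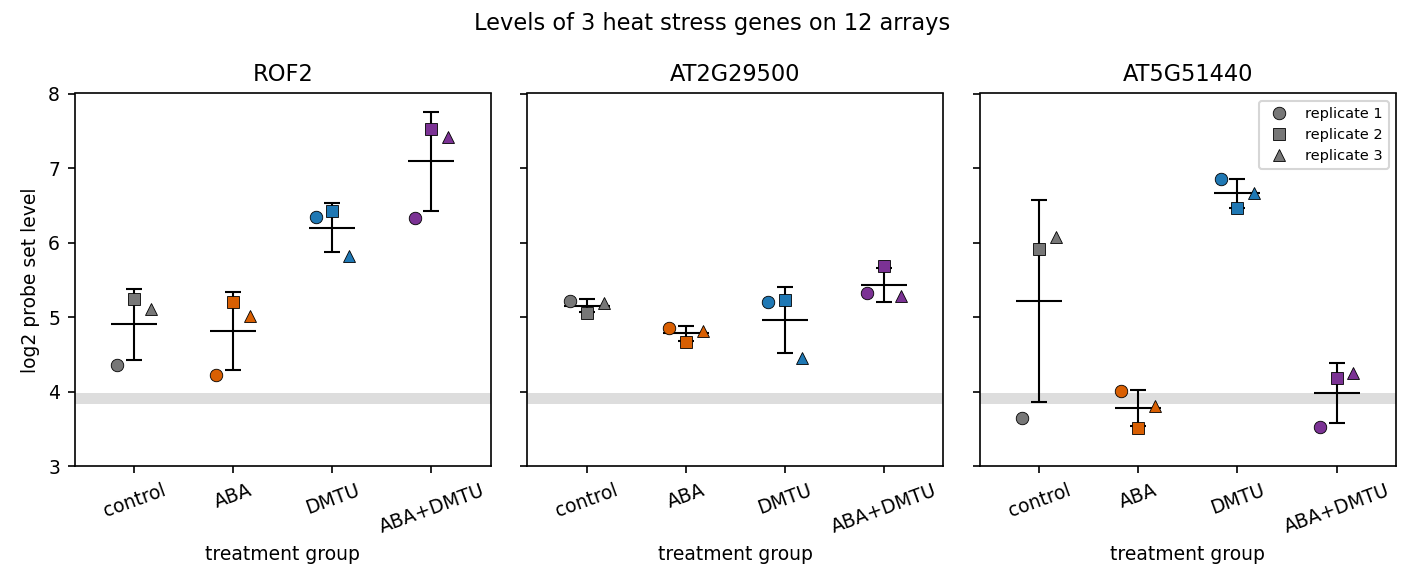
Log2 probe set levels (y axis) of ROF2, AT2G29500 and AT5G51440 in the 4 treatment groups (x axis), 1 point per array with a marker per replicate number, horizontal bars for group means, error bars for the SD (n = 3) and a grey band for the range of the arrays' lower quartiles (3.84 to 3.98). ROF2 is high on all 6 arrays with DMTU, AT2G29500 stays between 4.45 and 5.69, and AT5G51440 is low on all 6 arrays with ABA and in control replicate 1.

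AT2G29500, the class I small heat shock protein gene, stayed within a narrow range. Its log2 level was 5.22, 5.05 and 5.19 on control arrays and 4.85, 4.67 and 4.82 with ABA. On DMTU arrays it was 5.20, 5.23 and 4.45, and with ABA+DMTU it was 5.32, 5.69 and 5.28. The ABA arrays all lay below the control arrays and the ABA+DMTU arrays all lay above them, while DMTU replicate 3 was the lowest of the 12. The lowest ABA+DMTU array (5.28) was close to the highest control array (5.22). The share of all probe sets separated between ABA+DMTU and control was not counted. Class I small heat shock proteins are close in sequence, and how far their transcripts share this probe set was not measured.

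The order of the AT2G29500 means was ABA+DMTU (5.43 ± 0.23), control (5.15 ± 0.09), DMTU (4.96 ± 0.44) and ABA (4.78 ± 0.10; SD, n = 3). Control overlapped with DMTU, and DMTU with ABA. ABA had a log2 change of -0.37 ± 0.19 (SE) against control, with same-numbered differences of -0.37, -0.38 and -0.37. The labels do not say that the numbers pair arrays. The size of that change depended on scaling and was -0.22 with arrays centred on their medians and -0.26 after a further quantile normalization. With DMTU present the ABA change had the opposite sign, 0.47 ± 0.19, and was 0.21 without DMTU replicate 3. The interaction was 0.84 ± 0.27, and it lay between 0.58 and 1.01 under the 19 alternatives. These reuse most or all of the same arrays, so the kept sign only describes AT2G29500. For DMTU against control the change was -0.19 ± 0.19, and without DMTU replicate 3 it was 0.06.

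AT5G51440, the mitochondrial small heat shock protein gene, was low on every array with ABA and highest with DMTU alone. Its log2 level was 6.85, 6.46 and 6.67 in DMTU and 3.53, 4.18 and 4.25 in ABA+DMTU arrays, a log2 change of -2.68 ± 0.51 (SE) or 6.40-fold. Without DMTU it was 3.65, 5.92 and 6.08 in control and 4.01, 3.52 and 3.81 in ABA arrays. Control replicate 1 lay among the ABA arrays, and the other control arrays lay about as far above ABA as the DMTU arrays lay above ABA+DMTU.

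The spread of the control group thus decided the size of its changes. The AT5G51440 means were 6.66 ± 0.19 in DMTU, 5.22 ± 1.36 in control, 3.98 ± 0.40 in ABA+DMTU and 3.78 ± 0.24 in ABA (SD, n = 3). DMTU and control did not overlap. Control overlapped with ABA+DMTU through replicate 1, and ABA+DMTU overlapped with ABA. The ABA change without DMTU was -1.44 ± 0.51, and -2.22 without control replicate 1. The DMTU change against control was 1.45 ± 0.51, and 0.66 without that array. The interaction was -1.24 ± 0.72, and it shrank to -0.46 without control replicate 1 and to -0.02 without any array numbered 1. Between ABA+DMTU and ABA the change was 0.20 ± 0.51. All arrays with ABA were at or near the lower quartiles, between 3.52 and 4.25, so the size of its ABA difference may be understated.

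Markers of dividing cells moved in the same direction as AT5G51440. AUR1 averaged 8.14 ± 0.65 on control arrays, 4.81 ± 0.51 with ABA, 9.24 ± 0.22 with DMTU and 5.00 ± 0.30 with ABA+DMTU. HTB2 averaged 10.36 ± 0.52, 6.49 ± 1.40, 10.97 ± 0.22 and 6.92 ± 0.19 in the same order. In control replicate 1 they were lowest of their group, at 7.39 and 9.81. In RNA from a whole culture, fewer cells of a type and less RNA per cell cannot be told apart. The part of dividing cells in the AT5G51440 levels was not tested.

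**Figure D2:**
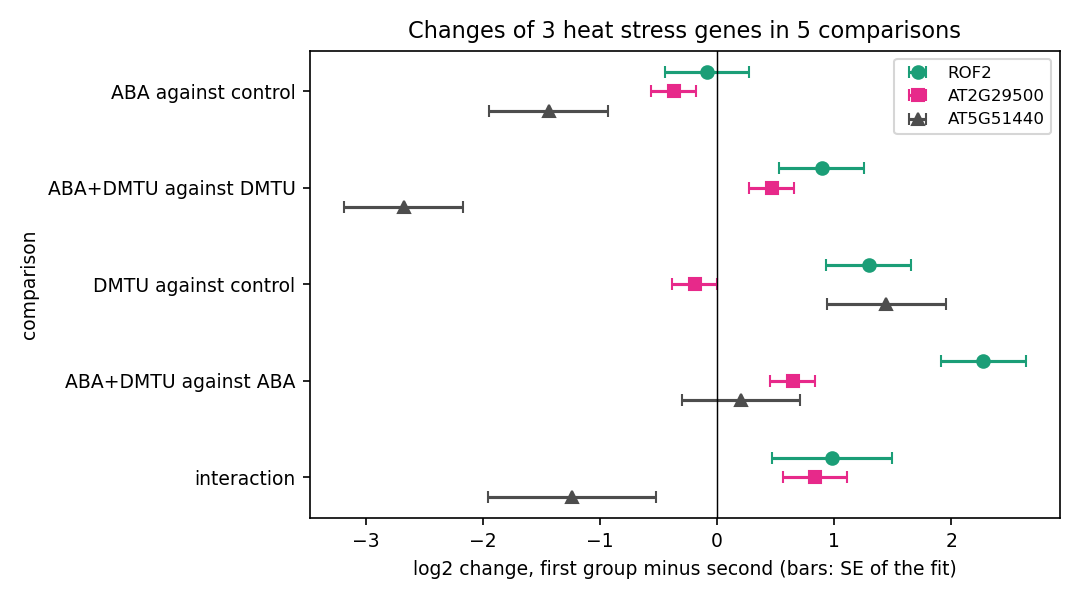
Log2 changes (x axis, first group minus second) of the 3 genes in 5 comparisons (y axis), with error bars for the standard error of the limma fit over 12 arrays. DMTU against control gives 1.30 for ROF2 and 1.45 for AT5G51440, while ABA+DMTU against DMTU gives 0.89 for ROF2 and -2.68 for AT5G51440.

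The 3 genes did not share a pattern over the 4 groups. In DMTU against control, ROF2 and AT5G51440 were higher without overlap between the arrays of the groups, as were 21.3% of all 22746 tested probe sets (17.4% were lower). In ABA+DMTU against ABA, ROF2 and AT2G29500 were higher without overlap, as were 19.7% of all (15.3% were lower). In ABA+DMTU against DMTU, AT2G29500 was higher and AT5G51440 lower without overlap, against 26.3% and 25.2% of all. In ABA against control, AT2G29500 was lower without overlap, as were 23.7% of all (20.7% were higher). Each of these comparisons shares arrays with others, so a gene's changes in them are not independent. Separation of this kind was common over the whole table, and the genes were chosen with these levels known, so the counts describe them only.

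The other genes of the heat and chaperone pathway came from 5 lists of 107 genes, of which 33 had a named probe set, these 3 included. The 21 heat shock factors had none, and neither had ROF1, HSP101 or the HSP90 genes, so they are not analysed here. A gene was called changed at an adjusted p under 0.05 (limma, Benjamini-Hochberg over all 22746 probe sets).

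The other 9 measured small heat shock protein genes went in different directions, and most did not pass the test. Several of them lay at the dim end of the scale, where a difference may be understated. In ABA against control 2 of the 9 rose and 1 fell, with a median change of 0.15 against 0.01 over all probe sets, of which 35.2% were called in either direction. The counts were the same in ABA+DMTU against DMTU, with a median of 0.30 against 0.03 and 39.4% of all called. AT2G19310, a class VI member, rose with ABA from 7.02, 7.42 and 7.37 in control to 8.27, 8.33 and 8.42 in ABA arrays, a log2 change of 1.07 ± 0.13 (SE; adjusted p = 7.5e-05, limma). With DMTU present it rose by 1.52 ± 0.13 (adjusted p = 4.6e-06), and it was higher in ABA+DMTU than in ABA arrays by 0.61 ± 0.13 (adjusted p = 0.0102). Its direction under ABA was thus opposite to that of AT5G51440.

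AT5G54660, a class V member, rose with ABA by 2.28 ± 0.58 (adjusted p = 0.00924, limma). Its ABA arrays were uneven, at 8.25, 5.72 and 5.89, against 4.67, 4.03 and 4.33 in control, and without ABA replicate 1 the change was 1.46. With DMTU present its change was 1.41 ± 0.58 (adjusted p = 0.0773). AT1G54050, of class III, fell with ABA by 0.71 ± 0.21 without DMTU (adjusted p = 0.0216) and by 0.87 ± 0.21 with it (adjusted p = 0.00622), the same direction as AT5G51440. The fall without DMTU lost its call without control replicate 2, control replicate 3, ABA replicate 1 or ABA replicate 3, with adjusted p up to 0.0783 over the alternatives.

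DMTU alone moved the same class III gene up by 0.71 ± 0.21 (adjusted p = 0.0406, limma), a call lost in 10 of 20 alternatives, and AT4G21870, of class IV, fell with DMTU by 0.83 ± 0.17 (adjusted p = 0.00747). The peroxisomal AT5G37670 rose with ABA in the presence of DMTU by 0.46 ± 0.14 (adjusted p = 0.0198), a call lost without DMTU replicate 1, DMTU replicate 2, ABA+DMTU replicate 1 or ABA+DMTU replicate 2. The others, the class I AT1G53540, AT5G47600, the endoplasmic reticulum AT4G10250 and the mitochondrial AT1G52560, were called in none of the 5 comparisons. Group means were 3.86 to 4.06 for AT5G47600 and 3.57 to 4.1 for AT4G10250, at or near the lower quartiles. Those of the called AT5G37670 were as dim, at 3.65 to 4.11, and those of AT1G53540 were 4.19 to 4.57. At dim levels the lack of a call does not show that a gene did not respond. AT1G52560, the other measured mitochondrial member, stayed between 3.50 and 3.89 on all 12 arrays, below or within the lower quartiles.

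The FKBP immunophilins are a family of peptidyl-prolyl isomerases, and 11 others besides ROF2 were measured. Their median log2 change was -0.32 in DMTU against control, where ROF2 had 1.30, and 0.28 in ABA+DMTU against ABA, where ROF2 had 2.28. DMTU alone raised 1 of the 11 and lowered 0, where 17.6% of all probe sets were called. The gene was AT3G12340, which went from 5.70, 6.65 and 6.99 in control to 7.24, 7.27 and 7.39 with DMTU, a log2 change of 0.86 ± 0.26 (adjusted p = 0.0406, limma). That call was lost in 11 of 20 alternatives, among them each removal of 1 DMTU array. AT3G12340 fell with ABA, with a log2 change of -1.49 ± 0.26 without DMTU (adjusted p = 0.000794) and of -2.07 ± 0.26 with it (adjusted p = 6.12e-05). AT4G26555, of the chloroplast lumen, fell with ABA alone by 1.35 ± 0.20 (adjusted p = 0.000297), and these were the 2 of 11 (18.2%) called in ABA against control, where 35.2% of all probe sets were called.

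In the presence of DMTU, ABA raised 5 of the 11 FKBP genes and lowered 1 (45.5% and 9.1%), where 18.8% of all probe sets rose and 20.6% fell. The median change was 0.54 against 0.03 over all probe sets. The largest rises were AT4G19830 (0.95 ± 0.18, adjusted p = 0.0011), AT5G13410 (0.88 ± 0.25, adjusted p = 0.0162) and AT1G20810 (0.85 ± 0.10, adjusted p = 5.13e-05, limma), all chloroplast FKBPs. The call of AT5G13410 was lost without DMTU replicate 3 or ABA+DMTU replicate 1. ROF2 had 0.89 in the same comparison. AT1G20810 had a positive interaction of 0.75 ± 0.14 (adjusted p = 0.0213), and it was higher in ABA+DMTU than in ABA arrays by 0.45 ± 0.10 (adjusted p = 0.0135). The interaction call was lost without ABA replicate 3 or DMTU replicate 1.

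Of the ATP-driven chaperones, 3 HSP70 genes were measured. Hsp70-2, a cytosolic HSP70, fell from 10.35, 10.25 and 10.47 in control to 8.51, 8.47 and 8.51 in ABA arrays, a log2 change of -1.86 ± 0.13 (adjusted p = 1.02e-06, limma). It also fell with ABA in the presence of DMTU (-1.26 ± 0.13, adjusted p = 1.38e-05) and with DMTU alone (-0.64 ± 0.13, adjusted p = 0.00589). AT3G09440, another cytosolic HSP70, fell with ABA by 1.01 ± 0.12 (adjusted p = 5.19e-05), while with DMTU present its change was 0.00 ± 0.12. The interaction of 1.01 ± 0.17 passed (adjusted p = 0.0102). Its change with DMTU alone was -0.32 ± 0.12 (adjusted p = 0.088), and it was called lower without control replicate 1. AT1G11660, of the HSP110 type, had changes of 0.10 to 0.16 in the 4 comparisons of groups and was called in none.

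Of 7 co-chaperones and other heat-induced genes, 4 fell and 1 rose with ABA (57.1% and 14.3%), both without and with DMTU. Over all probe sets 19.8% fell and 15.5% rose without DMTU, and 20.6% and 18.8% with it. AT1G23100, of the GroES co-chaperonin family, was like AT5G51440 low with ABA and high with DMTU alone. Its level was 5.41, 7.67 and 7.33 on control arrays and 3.49, 5.31 and 4.83 with ABA. It was 8.47, 8.59 and 8.46 with DMTU, and 4.74, 4.39 and 5.10 with ABA+DMTU. As in AT5G51440, control replicate 1 was the lowest control array. It fell with ABA by 2.26 ± 0.55 (adjusted p = 0.00749, limma) and in the presence of DMTU by 3.76 ± 0.55 (adjusted p = 0.000224). The fall without DMTU did not pass when only the control and ABA arrays were fitted (adjusted p = 0.06, within a range of 3.54e-07 to 0.06 over the alternatives). Its change with DMTU alone was 1.70 ± 0.55 (adjusted p = 0.0567).

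Hop1 and Hop2, which link HSP70 to HSP90, fell with ABA, with log2 changes of -1.05 ± 0.12 (adjusted p = 5.69e-05, limma) and -0.49 ± 0.09 (adjusted p = 0.00112). In the presence of DMTU their changes were -1.66 ± 0.12 (adjusted p = 1.61e-06) and -0.54 ± 0.09 (adjusted p = 0.000461). Fes1A, an HSP70 cofactor needed for heat tolerance, fell likewise, with changes of -0.83 ± 0.16 (adjusted p = 0.00161) and -0.96 ± 0.16 (adjusted p = 0.000472). With DMTU alone, Hop1 rose by 0.56 ± 0.12 (adjusted p = 0.00993) and Fes1A by 0.52 ± 0.16 (adjusted p = 0.044), and the latter call was lost in 12 of 20 alternatives. AT2G20560, of the DnaJ family, was the riser, with log2 changes of 1.02 ± 0.13 (adjusted p = 0.000101) without and 1.20 ± 0.13 (adjusted p = 2.29e-05) with DMTU. Neither Hop3 nor HSA32, a heat-induced protein of acquired heat tolerance, was called in any of the 5 comparisons.

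Over all 30 genes, 40.0% were called in ABA against control, where 35.2% of all probe sets were. The shares were 50.0% against 39.4% for ABA+DMTU against DMTU, 20.0% against 17.6% for DMTU against control and 10.0% against 14.2% for ABA+DMTU against ABA. For the interaction they were 6.7%, which is 2 genes, against 2.80%. In ABA against control 3 rose (10.0%) and 9 fell (30.0%), where 15.5% of all probe sets rose and 19.8% fell. With arrays centred on their medians 5 of the 30 rose and 9 fell, and over all probe sets the share of calls that were rises went from 43.9% to 58.8%. With DMTU present ABA raised 8 and lowered 7 (26.7% and 23.3%), where 18.8% and 20.6% of all did. After centring 12 of the 30 rose and 7 fell, and the share of rises over all probe sets was 64.2% in place of 47.7%. In DMTU against control 4 rose and 2 fell (13.3% and 6.7%), where 9.39% and 8.26% of all did. That balance depended on scaling, with 2 and 3 after centring and 3 and 5 after a further quantile normalization, and the count was 3 in all without ABA replicate 3, DMTU replicate 1 or DMTU replicate 2. Between ABA+DMTU and ABA 3 rose and 0 fell, where 7.36% and 6.86% of all did. With array quality weights 9 rose and 2 fell, and without the arrays numbered 1 of all groups 5 rose and 3 fell. For the interaction 2 of 30 were positive and 0 negative, where 1.16% and 1.65% of all were. The ROF2 change in DMTU against control, 1.30, was above that of the 4 genes called higher there, the largest of which was 0.86 (AT3G12340), and below the 1.70 of AT1G23100, which did not pass.

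**Figure D3:**
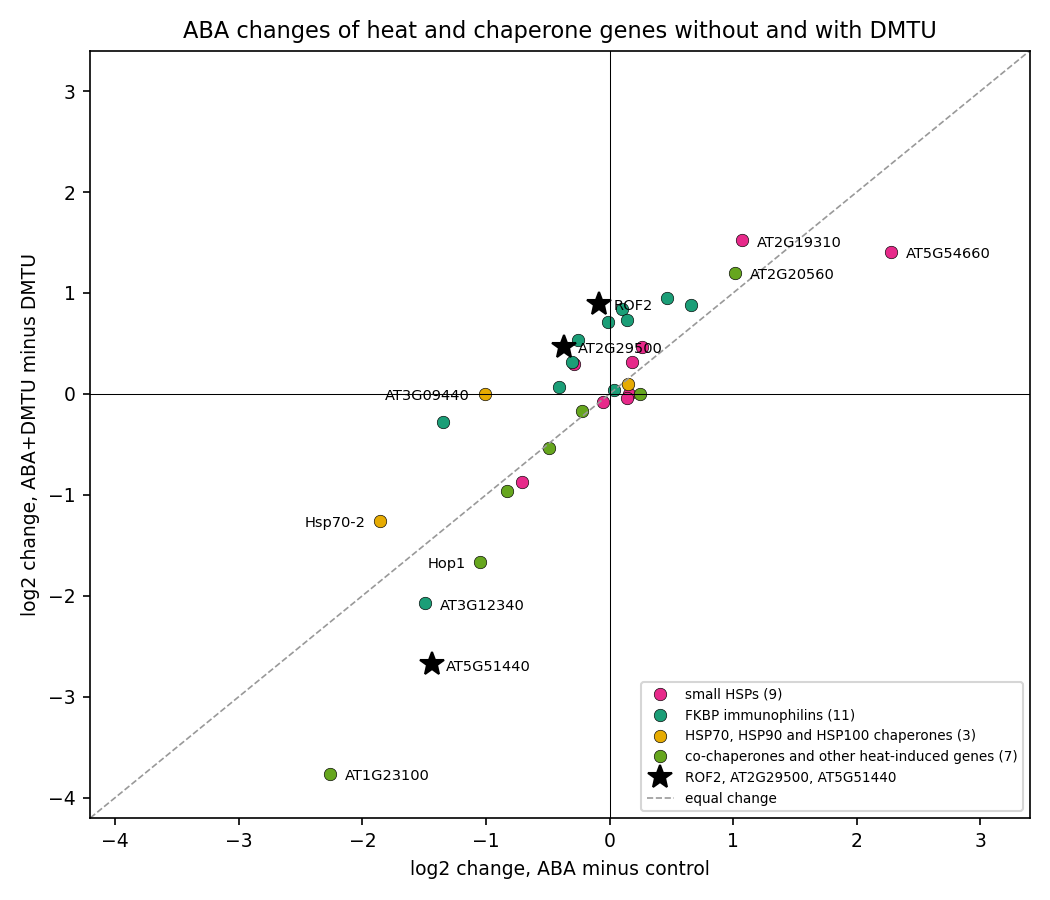
Log2 change with ABA in the presence of DMTU (y axis, ABA+DMTU minus DMTU) against the change without it (x axis, ABA minus control) for 30 heat and chaperone genes coloured by list and for ROF2, AT2G29500 and AT5G51440 (stars), with a dashed line for equal change. AT5G51440 lies at -1.44 and -2.68, AT1G23100 at -2.26 and -3.76, and ROF2 lies at -0.09 and 0.89.

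Genes with the most similar pattern were sought among 3542 probe sets with 1 gene and an SD of at least 0.5 over the 12 arrays. The measure was Pearson's r over the 12 arrays, which fall into treatment groups. It thus reflects the group means and any array that stands apart within its group, and it is given as a description. For ROF2 the 5 highest were AT1G67340 (r = 0.96), AT5G27490 (r = 0.95), AT3G17090 (r = 0.94), AT5G38510 (r = 0.94) and WLIM1, an actin-binding LIM protein (r = 0.93). AT1G67340 averaged 5.17 ± 0.42 on control arrays, 4.90 ± 0.22 with ABA, 5.98 ± 0.40 with DMTU and 6.69 ± 0.83 with ABA+DMTU. AT5G38510 averaged 6.88 ± 0.07, 7.39 ± 0.40, 8.13 ± 0.12 and 9.08 ± 0.37 in the same order.

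For AT5G51440 the 5 highest were AT1G75670 (r = 0.98), AT2G31410 (r = 0.98), AT5G20600 (r = 0.98), AT2G32220 (r = 0.97) and AT2G37600 (r = 0.97). AT2G32220 and AT2G37600 encode ribosomal proteins of the large subunit. A low control replicate 1 is built into the choice of all 5, because AT5G51440 itself was low on that array. All 5 were lower in control replicate 1 than their control mean, and AT1G75670 had 5.95 there against a control mean of 7.00 ± 0.92. Its other means were 5.39 ± 0.12 with ABA, 8.45 ± 0.09 with DMTU and 5.78 ± 0.27 with both, and unlike AT5G51440 it did not reach the lower quartiles.

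The likeness was weaker for AT2G29500, whose own range was small. Its highest were SD1-29, a receptor kinase (r = 0.82), AT1G70810 (r = 0.80), AT2G30990 (r = 0.79), AT1G61840 (r = 0.77) and AT3G19400 (r = 0.76). SD1-29 averaged 6.88 ± 0.27 on control arrays, 6.19 ± 0.04 with ABA, 6.68 ± 0.40 with DMTU and 7.47 ± 0.06 with ABA+DMTU, the same order of means as AT2G29500.

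**Figure D4:**
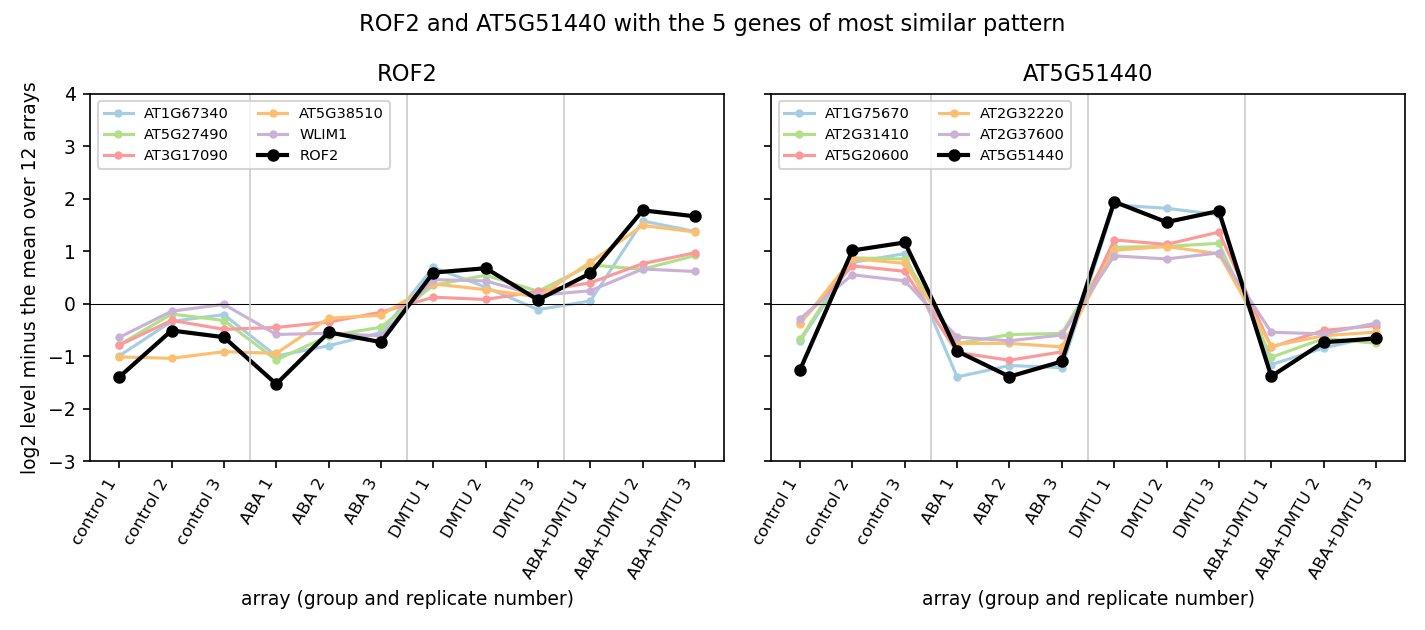
Log2 level minus its own mean over 12 arrays (y axis) on each array (x axis, by group and replicate number) for ROF2 and AT5G51440 (black) and the 5 genes with the highest r to each (colours), where lines only join the points of a gene. ROF2 and its 5 genes are on average higher with DMTU, and AT5G51440 and its 5 genes are low with ABA and lower in control replicate 1 than in the other control arrays. The genes were picked for likeness over these same arrays, so the shared features follow from the choice.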

How the data were processed

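The 12 Affymetrix arrays, 1 colour each, held RNA of T87 cells and were grouped by the sample labels. The authors deposited log2 values per probe set. Per the submitters' processing notes, RMA and limma were used, with no role or version stated. Whether the arrays were normalized jointly is not given in the sources used here, and no normalization was added. Of 22810 probe sets, 64 controls were left out. The number of arrays limits the precision.

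Names came from the platform's annotation (13513 probe sets with 1 gene, 503 with several, 8794 unnamed here, controls included), updated through RefSeq's TAIR10.1 gene table, which matched 13436. ROF2 was matched by synonym. No genome build was stated with the data. Gene positions of the RefSeq table were used only to find the neighbours of ROF2, AT2G29500 and AT5G51440.

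Means per group were fitted with limma 3.58.1 in R 4.3.3 over all 12 arrays (8 residual degrees of freedom, two-sided moderated tests), tested on simulated data. Python 3.11.15, pandas 2.3.3 and matplotlib 3.10.9 handled tables and plots. The labels do not say whether replicates were separate cultures, so p-values may measure technical spread, and they name no batch. Sample numbers of the arrays without DMTU and with it lie in separate series. Comparisons of groups with DMTU against groups without it therefore cannot separate DMTU from a difference between those series.

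Members and lists were chosen with earlier results of these data known. The text names the 3 genes, all genes of lists with 6 or fewer measured, the 4 largest called changes per other list and comparison, and 5 like genes per member. Naming the uncalled list genes and the values of Hop2 came after values were seen.

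Deviations from group means correlated between same-numbered control and ABA arrays (r = 0.52, 0.42 and 0.39). Control replicate 2 with ABA replicate 3 (r = 0.415) and control replicate 3 with ABA replicate 2 (r = 0.437) correlated as well. The deviations thus set replicate 1 apart in both groups, and they do not show that replicates 2 and 3 pair by number. Same-numbered differences are therefore a description. In no other pair of groups was every same-numbered r over 0.1.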

Additional observations from a re-analysis of the deposited data

Results flagged for a closer look

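For 2 of the 30 heat and chaperone genes the ABA effect differed between cells with and without DMTU by the interaction test (limma), a share of 6.7% where 2.80% of all probe sets were called. AT3G09440, a cytosolic HSP70, had an interaction of 1.01 (adjusted p = 0.0102, 0.000231 to 0.0293 over the alternatives), with levels of 10.71, 10.93 and 11.06 on control arrays, 9.88, 9.84 and 9.95 with ABA, 10.66, 10.68 and 10.41 with DMTU and 10.71, 10.52 and 10.52 with ABA+DMTU. AT1G20810, a chloroplast FKBP, had 0.75 (adjusted p = 0.0213, 0.00348 to 0.0566 over the alternatives). Its levels were 6.91, 6.71 and 6.64 on control arrays, 6.78, 6.92 and 6.85 with ABA, 6.40, 6.56 and 6.39 with DMTU and 7.39, 7.22 and 7.29 with ABA+DMTU.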

How the results depend on the processing

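The limits are 3 arrays a group, arrays that stood apart and, for AT5G51440 and several other small heat shock protein genes, dim levels. Replicate 1 of control and of ABA stood apart most, and ABA+DMTU replicate 1 and DMTU replicate 3 less. With array quality weights more probe sets were called: 12891 (8014 without weights) in ABA against control, 8008 (4013) in DMTU against control, 7542 (3234) in ABA+DMTU against ABA and 3097 (638) for the interaction. Of the 30 heat and chaperone genes, 22 (12), 15 (6), 11 (3) and 8 (2) were called, and the AT5G51440 interaction was -0.30. Centring arrays on their medians gave AT2G29500 an ABA change of -0.22, and a further quantile normalization -0.26, from -0.37. Centring moved the median ABA change of all probe sets by 0.15 without and 0.17 with DMTU, and the calls from 3518 higher and 4496 lower to 5036 and 3522, and from 4274 and 4682 to 6753 and 3765.

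Without the arrays numbered 1 of all groups, an alternative chosen after seeing the data, AT5G51440 had -2.36 in ABA+DMTU against DMTU, 0.55 in ABA+DMTU against ABA and an interaction of -0.023. There 5573 probe sets and 8 heat genes were called in ABA+DMTU against ABA, and 1947 probe sets for the interaction. Without replicate 1 of control and of ABA together, the interaction had 1243 probe sets, 4 heat genes and -0.35 for AT5G51440.

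Leaving out 1 array at a time gave 2559 (without DMTU replicate 2) to 4537 probe sets and 3 to 9 heat genes in DMTU against control. For the interaction it gave 291 (without DMTU replicate 2) to 795 probe sets, 1 to 3 heat genes, and -1.67 to -0.46 (without control replicate 1) for AT5G51440. The interaction count of probe sets was also lower by over 1.5 times without control replicates 2 (416) or 3 (385), ABA replicate 3 (343), DMTU replicate 1 (395) or ABA+DMTU replicates 2 (370) or 3 (411). In ABA+DMTU against ABA the probe sets ranged from 2160 to 4356.

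With the replicate block the probe sets called were 8068, 8916, 4231, 3320 and 583 in ABA against control, ABA+DMTU against DMTU, DMTU against control, ABA+DMTU against ABA and the interaction, and the heat genes 13, 16, 7, 3 and 2. It changed none of the named calls. The fit on only the arrays of the groups compared was not run for the interaction. For named list genes, 800 of 855 alternative values stayed on the same side of the threshold, 49 lost the call and 6 gained it. A change of direction was counted only where the main or the alternative value was called, and there were 0. Uncalled values could change sign, as that of AT1G11660 in ABA against control did (-0.044 to 0.289 when single arrays were left out). The cause of these shifts was not tested.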

Other observations

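Of the 6 protein-coding genes next to ROF2, AT2G29500 and AT5G51440 on their chromosomes, 1 had a named probe set, AT2G29510, the neighbour of AT2G29500. It averaged 8.15 ± 0.28 on control arrays, 6.53 ± 0.16 with ABA, 7.97 ± 0.04 with DMTU and 7.36 ± 0.24 with ABA+DMTU (SD, n = 3), so its order over the groups was not that of AT2G29500.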
